A study of Arabidopsis thaliana with 4 samples.

Results

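A step down between days 3 and 5 of a growth course was described for 214 probe sets of a plant cell culture, of 22746 on the array once the control probe sets were left out (0.941%). The members were chosen by their signals on all 4 days. Signals below 25 were first raised to 25, called the floor here. Days 1 and 3 then had to lie within 1.5-fold of each other, days 5 and 7 within 1.5-fold of each other, and the lower of days 1 and 3 had to be at least 1.8 times the higher of days 5 and 7. That last ratio is called the step below. Of the 15344 probe sets with a signal above the floor on at least 1 array, 1.39% met the rule.

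The cells were MM2d, a suspension-cultured line of Arabidopsis thaliana. Each of the 4 groups, days 1, 3, 5 and 7 after dilution, held 1 array, with total RNA hybridised to the Affymetrix ATH1 array. All 4 shared the same start and conditions: 5 ml of an early stationary culture, 7 days after its own subculture, went into 100 ml of new MSS medium with 3% sucrose, NAA (an auxin) at 0.5 mg/l and kinetin (a cytokinin) at 0.05 mg/l, and was shaken in the dark at 130 rpm and 27 °C. The labels name no genotype other than the line, and do not say whether the days were sampled from 1 flask or several. No day was repeated, so no difference below was tested, and every value is that of single arrays. Since each array was scaled to the same mean and the RNA came from whole cultures, fewer cells that make a transcript and less of it per cell cannot be told apart.

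The 4 arrays had median signals of 36.3, 41.4, 43.2 and 44.3 on days 1, 3, 5 and 7, and 57.3% to 61.9% of probe sets above the floor. The ratio of 3' to 5' signal of actin, a sign of RNA quality, was 1.45 on day 1 and 1.05 to 1.18 on the other days, that of GAPDH was between 0.950 and 1.12 throughout, and that of ubiquitin was 1.59 on day 1 and 1.22 to 1.30 afterwards. Older control probe sets gave 4.31, 3.63, 2.13 and 3.79 for actin and 3.88, 3.05, 2.96 and 2.98 for ubiquitin on days 1, 3, 5 and 7. How far these differences enter the signals below was not tested. Marker genes of other cell types (green cells, root hairs, xylem, guard cells, embryo and pollen) were looked up by symbol. The annotation used here left 8730 probe sets unnamed, and the array may hold probe sets for markers not found. Of 30 markers, only EXPA7 and FMA were matched to a probe set of their own, at 9.68 to 28.9 and 21.8 to 42.8. The marker list therefore says little about the make-up of the culture.

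A cell that grows must build ribosomes, and the cytosolic ribosome of a plant is put together from rRNA and many proteins in a small (40S) and a large (60S) subunit, each protein being encoded by a small family of near-identical genes. Assembly starts in the nucleolus, where processing factors cut and fold the rRNA and add the proteins. In batch culture, cells diluted into new medium first resume growth and division, then slow as nutrients run out.

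Genes of this translation machinery were found among the members with a name. The annotation gave 1 gene to 132 members, several genes to 10 and left 72 unnamed here. The 132 were different genes, 11 with a symbol and 121 known here by a locus code alone. Cytosolic ribosomal proteins accounted for 32 of the 132 and ribosome assembly factors for 13. Of all 8690 probe sets that name 1 gene and were above the floor on at least 1 array, these families had 125 and 33. Among the rest of the 132 members, a few could be placed as wall, transport, mitosis, respiration, nuclear pore, chaperone or RNA modification genes. Most of that rest were given no group here. The roles of genes with only a locus code come from general knowledge of Arabidopsis families and not from the files, and the family lists were written after the members had been seen.

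Over the 214 members, the mean log2 signal of days 5 and 7 minus that of days 1 and 3 had a median of -1.27 (quartiles -1.45 and -1.14), against 0.04 over all probe sets above the floor. As a fold, days 5 and 7 were 2.41-fold lower at the median, with a range of 1.85 to 6.10. The rule chose these values, so they describe the members and support nothing. The step itself had a median of 2.04 and a highest value of 4.73. It was at least 2 for 122 members and at least 3 for 14.

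**Figure D1:**
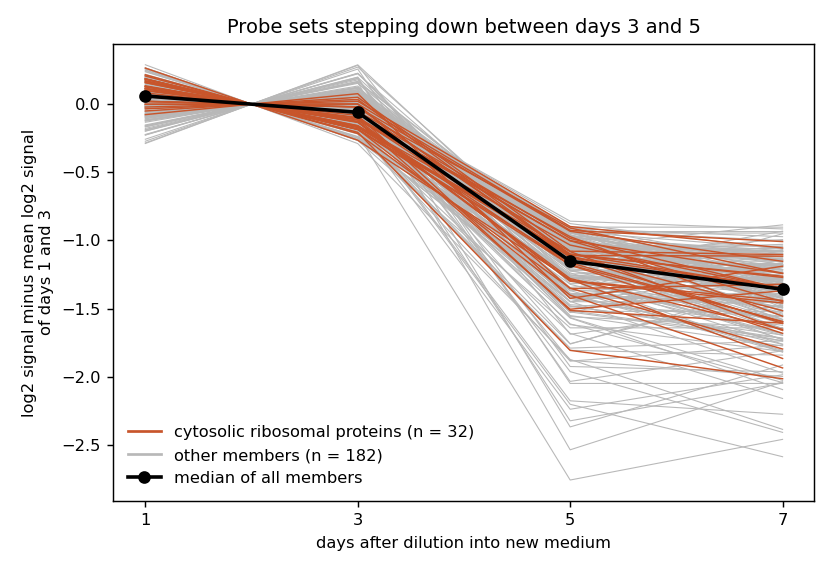
Signal of each member by day, as log2 minus the mean log2 of its days 1 and 3, for the 32 cytosolic ribosomal proteins (orange) and the other 182 members (grey), each line being 1 probe set on 1 array per day; the black line is the median over all 214. Day 5 lies below day 3 in every line, as the rule demands, and the median of day 7 lies a little below that of day 5.

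Neither level was quite flat. On day 3, 143 of the 214 members were lower than on day 1, with a median ratio of 0.920, and on day 7, 166 were lower than on day 5, with a median ratio of 0.893. The corresponding medians over all probe sets above the floor were 1.00 and 1.00. Between days 5 and 3 the median ratio of the members was 0.459. In 31 members the signals stayed within 1.1-fold in each of the pairs.

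The step alone was met by 310 probe sets, some of which the flatness limits left out. The late pair alone lay too far apart in 52, of which 51 were lower on day 7 than on day 5. The early pair alone was too far apart in 30, of which 23 were lower on day 3 than on day 1, and both pairs in 14. A further 81 probe sets were flat in both pairs and had a step between 1.7 and 1.8, beside 58 members between 1.8 and 1.9. Just inside the limit, at steps of up to 1.81, stood AT5G20600, AT5G54130, AT2G40360, AT5G54580 and AT1G30580. Just outside, at 1.79, stood AT1G55890, AT1G80620, the proteasome subunit gene RPN12a, AT5G51180 and AT3G13580, the last a gene of ribosomal protein L7. The same rule turned over, for a step up, held for 365 probe sets.

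Cytosolic ribosomal proteins were the largest of the families listed. Of 125 of their genes with a probe set above the floor, 32 were members (25.6%), against 1.52% of the 8690 such probe sets that name 1 gene. The membership rule used these signals, so nothing is read from that share. The small subunit had 9 members of 44, the large subunit 20 of 68 and the stalk, the flexible arm of the large subunit that recruits elongation factors, 3 of 13. The fold by which days 5 and 7 lay lower was 2.48 at the median over the 32 and ran between 1.96 and 3.76. The other 100 members with 1 gene had a median of 2.34.

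Among small-subunit members, AT5G59240, a gene of ribosomal protein S8, had signals of 630, 473, 156 and 135 on days 1, 3, 5 and 7, a 3.76-fold difference. AT5G27700, of S21, had 2331, 2332, 913 and 933, a 2.53-fold difference. The levels of AT5G27700 were close to flat on each side of the step. AT5G58420, of S4, had 1688, 1415, 544 and 598 and was 2.71-fold lower on days 5 and 7, while AT2G21580, of S25, had 1189, 923, 396 and 274 and was 3.18-fold lower. Both genes measured for S12, AT1G15930 and AT2G32060, were members, at 2.25-fold and 2.98-fold lower. S10, S17 and S26 each had 1 member, and that of S26, AT3G56340, was 2.29-fold lower.

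In the large subunit, AT5G56710, of ribosomal protein L31, had signals of 2371, 2020, 890 and 796 on days 1, 3, 5 and 7, a 2.60-fold difference. AT1G36240, of L30, had 1178, 1310, 463 and 545 and was 2.47-fold lower late. It was among the few ribosomal members with day 7 above day 5, since 29 of the 32 were lower on day 7. AT1G08360, of L10a, had 1968, 1915, 899 and 896, and AT1G67430, of L17, had 2645, 2569, 1366 and 1172. Further members were AT1G27400, also of L17, AT2G19730, of L28, and AT3G24830, of L13a, at 2.35-fold, 2.76-fold and 2.11-fold lower. Both pairs of days of AT1G08360 were nearly equal. L7 had 3 members, AT1G80750, AT2G01250 and AT2G44120, at 2.34-fold, 1.96-fold and 2.70-fold lower. The fourth measured L7 gene was AT3G13580, just outside the limit with signals of 608, 430, 240 and 238.

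The stalk members were 1 gene each of P0, P2 and P3. AT5G57290, of P3, had signals of 1677, 1496, 554 and 520 on the 4 days, a 2.95-fold difference. AT3G28500, of P2, had 1137, 1192, 541 and 485, and was 2.27-fold lower late. AT3G09200, of P0, had 3194, 3290, 1740 and 1560, and was 1.97-fold lower. All 3 had their late signals below both early signals, as the rule demands.

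Most ribosomal protein genes outside the rule were lower on the late days as well. Of the 93 non-members, 83 (89.2%) were at least 1.5-fold lower on days 5 and 7, against 12.3% of the 8558 measured non-members of 1 gene. Of all 125 genes, 123 had a difference below 0, with a median log2 of -1.11. That number was 122 to 124 under 4 other ways of scaling the arrays, where the median ran between -1.29 and -0.88. What kept the 93 outside was the size of the step, the flatness or both. In both pairs 47 were flat but had too small a step, 12 had the step but not the flatness (11 of them because of the late pair), and 34 had neither. Their median ratios were 0.796 for day 3 over day 1, 0.651 for day 5 over day 3 and 0.695 for day 7 over day 5. For the 32 members these were 0.852, 0.493 and 0.844.

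The number of ribosomal members depended on the scaling. After quantile normalization, which forces the same distribution of signals on each array, 13 genes met the rule in place of 32, while the count of all members was 216. The other 3 scalings gave 26 to 35.

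Within single proteins, members and non-members stood side by side. Of 57 proteins with a measured gene, 27 had a member, and 24 of these had at least 2 measured genes. In L17 and S12 every measured gene was a member, and in 22 proteins only some were. The 34 non-members of those 22 included 29 that were at least 1.5-fold lower late. The remaining 5 were 1 gene each of S8, S25, P0, L35a and P2. That of P2, AT5G40040, had signals of 33.0, 32.5, 14.3 and 3.31, so its log2 difference of -0.39 is set by the floor and is no measure of its fall. Probe sets for such near-identical genes can share transcripts, so a gene's own difference may be blurred by its relatives.

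For S8, AT5G59240 had a log2 difference of -1.91 and AT5G20290 one of -0.25, with signals of 2919, 3419, 2872 and 2456 on the 4 days. For S25, the member AT2G21580 stood at -1.67 and AT2G16360 at -0.30, with 67.1, 177, 89.3 and 87.5. Another S25 gene, AT4G39200, was lower by more than the member, at -1.73, but its signals of 2697, 2247, 942 and 584 left the late pair too far apart for the rule. In P0, AT3G09200 had -0.98 and AT3G11250 -0.92, while AT2G40010 had 0.10, with signals of 215, 146, 177 and 203. That last value was below 0 when the arrays were scaled to a common median. For L35a, AT1G07070 had -1.37 and AT1G74270 -0.47. For L37, AT3G16080 had -1.31, and AT1G15250 and AT1G52300 had -0.69 and -0.67.

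**Figure D2:**
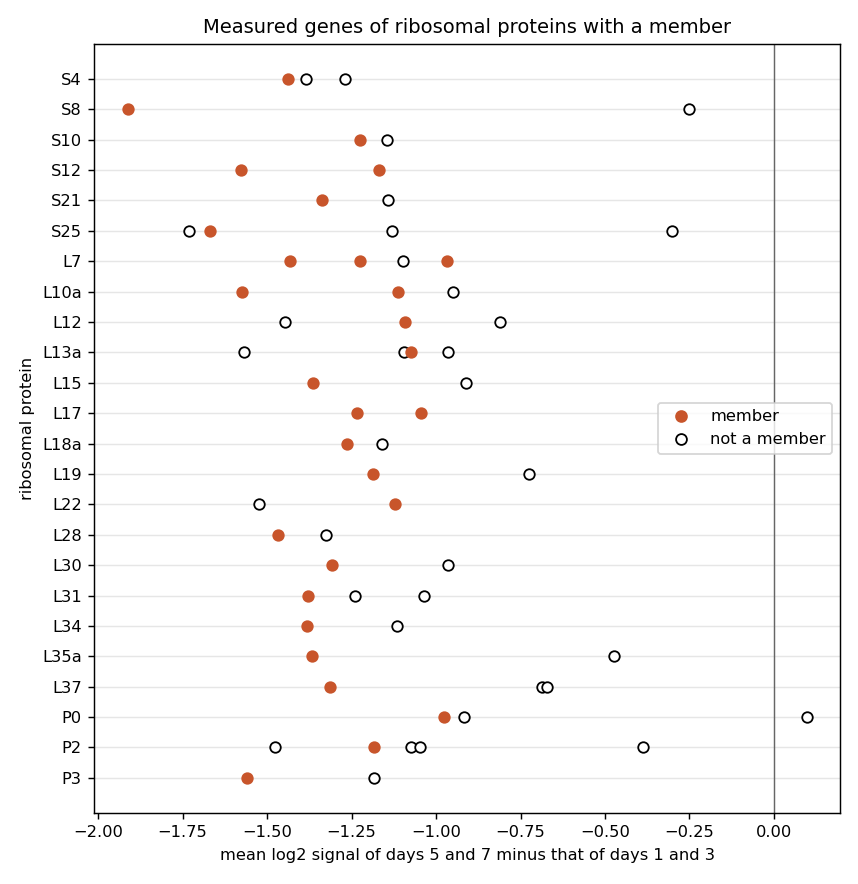
Log2 difference (mean of days 5 and 7 minus mean of days 1 and 3, horizontal axis) of every measured gene of the 24 ribosomal proteins with a member and at least 2 measured genes, 1 row per protein; filled points are members and open points are not. Most open points lie left of 0 among the filled ones. An open point each of S8, S25, L35a and P0 stands apart to the right, as does 1 of P2 whose late signals were raised to the floor.

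Ribosome assembly factors were the next family, with 32 genes measured by 33 probe sets. Of these probe sets 13 were members, 30 were at least 1.5-fold lower on days 5 and 7, and all 33 were below 0, with a median log2 difference of -1.21. With the arrays scaled to the hybridisation controls 32 were below 0 and 7 were members. Of all measured probe sets of 1 gene, 1.52% were members and 13.6% were at least 1.5-fold lower late. The list was put together partly with the members in view, so nothing is read from the difference.

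Small RNA-protein particles that guide rRNA modification and cleavage need proteins of the L7Ae type. AT5G20160, a gene of this type, had signals of 1929, 1959, 675 and 584 on days 1, 3, 5 and 7. It was 3.10-fold lower on days 5 and 7, the largest difference among the assembly members. Factors of the small subunit included AT5G27990, of the TSR2 type, with 478, 438, 186 and 152, and AT1G12650, of the RRP36 type, with 130, 126, 53.3 and 56.5. They were 2.73-fold and 2.33-fold lower late. AT1G06720, of BMS1, a GTPase of small-subunit assembly, was 2.31-fold lower.

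Other members were placed as factors of the large subunit. AT1G52930, of BRX1, had signals of 1307, 1214, 646 and 456 on the 4 days, a 2.32-fold difference. AT1G79150, of NOC3, had 170, 130, 61.1 and 46.2, a 2.79-fold difference. Members of the RRS1 type (AT2G37990), the SDA1 type (AT1G13160) and the RRP1 type (AT5G20600) were 2.52-fold, 2.20-fold and 1.85-fold lower. DEAD-box RNA helicases, assigned to neither subunit here, unwind the folded rRNA during assembly. Of these, AT3G18600, with 1035, 915, 438 and 394, was 2.34-fold lower and AT3G09720 2.39-fold lower. AT5G64420, related to a nucleolar regulator of rRNA transcription in yeast, was 2.37-fold lower.

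BOP1 works in a complex of 3 proteins with PES and WDR12, known as PeBoW, which matures the large subunit. AT2G40360, of BOP1, had signals of 1010, 883, 490 and 380 on days 1, 3, 5 and 7 and a step just over the limit. Its partners did not meet the rule. AT5G15550, of WDR12, had 896, 781, 444 and 374 and a step of 1.76, and AT5G14520, of PES, had 1421, 1181, 876 and 586 and a step of 1.35. All 3 genes were lower on each of the late days than on either early day, and PES had the largest drop of the 3 between days 5 and 7.

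**Figure D3:**
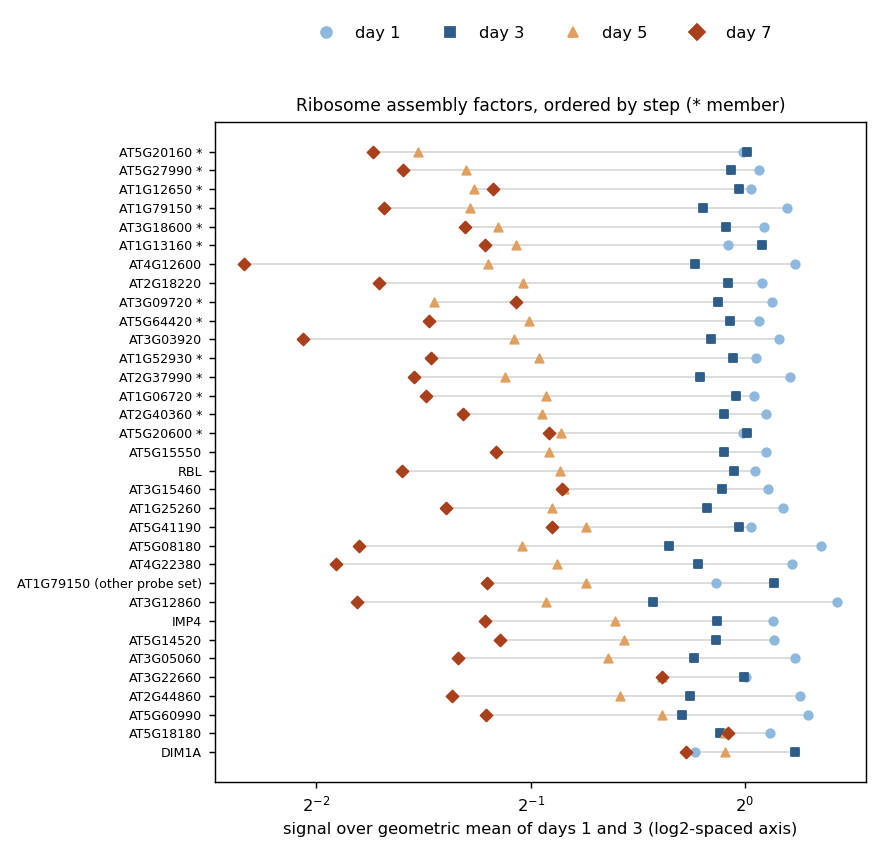
Signals of the 33 measured probe sets of ribosome assembly factors on days 1, 3, 5 and 7, each divided by the geometric mean of its days 1 and 3 (log2-spaced horizontal axis), with 1 row per probe set ordered by the step and members marked by an asterisk. In the members the symbols of days 5 and 7 lie close together and far left of those of days 1 and 3, while lower rows show them more evenly spread.

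Enzymes that modify RNA appeared as well, picked out after their values were seen. AT3G02320, a tRNA methyltransferase, had signals of 107, 98.5, 34.8 and 32.9 on the 4 days, a 3.03-fold difference. AT4G17610, a methyltransferase of the SpoU family, which acts on tRNA or rRNA, had 112, 95.2, 33.7 and 23.2. Its day 7 signal was below the floor, so days 5 and 7 were at least 3.55-fold lower. AT1G51310, a tRNA-thiolating enzyme, had 216, 187, 92.4 and 80.3, a 2.33-fold difference. PDF1A, the peptide deformylase that removes the formyl group from new mitochondrial proteins, had 291, 382, 143 and 129 and was 2.46-fold lower. Its relative PDF1B had 134, 117, 118 and 97.1, a log2 difference of -0.23. ILA, a large protein related to the yeast translation regulator GCN1, had 437, 415, 209 and 202 and was 2.07-fold lower.

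Expansins, which loosen the cell wall so that a cell can enlarge, gave the member of 1 gene with the largest step. EXPA15 had signals of 206, 178, 42.4 and 39.6 on days 1, 3, 5 and 7, so the late days were 4.68-fold lower. EXPB3, a beta-expansin, had 570, 432, 146 and 198 and was 2.91-fold lower, with day 7 above day 5. Among the 14 measured expansins these were the only members, beside 1.52% of all measured probe sets of 1 gene. They were also the only ones at least 1.5-fold lower late, where 13.6% of all measured probe sets of 1 gene were as much lower. Several of the others, such as EXPA9, EXPB1 and EXPB2, stayed near the floor on every day and could not have shown a 1.5-fold fall. Under a common median, and with the hybridisation controls, 1 expansin met the rule in place of 2. Another 4 were at least 1.5-fold higher, among them EXLA2 with a log2 difference of 2.35 and EXPA20 with 1.13, and the family's median was 0.18. The planned list of wall loosening and wall proteins, found by symbol, had 21 measured genes, of which 2 were members (9.52%). In that list 3 were at least 1.5-fold lower late (14.3%, near the 13.6% overall) and 16 were above 0. XTH20, no member, was 1 of these 3, with a log2 difference of -2.43.

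A tetraspanin and a transporter were also members. TET3, a tetraspanin of the plasma membrane, had signals of 93.8, 64.9, 19.2 and 19.5 on the 4 days. Its late signals were below the floor, so they were at least 3.12-fold lower. Of the 7 tetraspanins measured, TET3 alone was at least 1.5-fold lower late, where 13.6% of all measured probe sets of 1 gene were. Another 3 were at least 1.5-fold higher, TET5 by 2.19, TET8 by 1.74 and TET9 by 1.45 on the log2 scale. GTR2, a carrier that takes up glucosinolates, the sulphur-rich defence compounds of this plant family, had 82.1, 62.7, 23 and 16.3 and was at least 2.87-fold lower. Its close relative GTR1 had 192, 175, 344 and 484, a log2 difference of 1.15. GTR2 was thus lower and GTR1 higher on the late days of these arrays. Of the 27 measured membrane transporters found by symbol, GTR2 was the 1 member (3.70%, beside 1.52% of all measured probe sets of 1 gene). In this list 3 were at least 1.5-fold lower late (11.1%, near the 13.6% overall) and 21 were above 0. When the arrays were scaled otherwise than to the common mean, TET3 was no longer a member under any of 4 scalings.

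Of 6 measured mitosis genes found by symbol, 0 were members, beside 1.52% of all measured probe sets of 1 gene. Their median log2 difference was -0.64, and 4 (66.7%) were at least 1.5-fold lower late, beside 13.6% overall. A list by locus code, written with the members in view and so holding 3 of them by construction, had 9 measured genes and a median of -0.89. Of those 9 genes, 3 were members (33.3%) and 7 (77.8%) were at least 1.5-fold lower late. The 3 members of that list numbered 2 after quantile normalization and 1 when the arrays were scaled to the hybridisation controls. BUB3.1, a protein of the spindle checkpoint that also acts in building the cell plate, had signals of 182, 214, 82.4 and 81.2 on days 1, 3, 5 and 7, a 2.42-fold difference. ZCF125, a kinesin, had 101, 127, 55.0 and 54.8 and was 2.06-fold lower late. 3xHMG-box2, a protein that binds mitotic chromosomes, had 384, 393, 211 and 185 and was 1.96-fold lower. In each of the 3, days 1 and 3 lay above days 5 and 7 with the higher early value on day 3. Their relatives BUB3.2 and 3xHMG-box1 had log2 differences of -0.39 and -0.89 and did not meet the rule. The kinases AUR1, AUR2 and AUR3 had -0.60, -0.95 and -0.68, and BUBR1 0.11, which was below 0 under a common median.

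Respiratory complex I, the first proton pump of the mitochondrial chain, had 3 members among 21 measured nuclear genes (14.3%), beside 1.52% of all measured probe sets of 1 gene, in a list written after the members had been seen. AT2G02510 had signals of 1038, 1146, 553 and 495 on the 4 days, a 2.08-fold difference, AT5G18800 had 732, 621, 273 and 298, a 2.36-fold difference, and AT3G62790 had 460, 368, 198 and 189, a 2.13-fold difference. The list's median was -0.55 on the log2 scale, with 10 genes (47.6%) at least 1.5-fold lower late, beside 13.6% of all measured. None of the 3 met the rule when the arrays were scaled to the hybridisation controls. COS1, which makes the precursor of riboflavin and so of the flavins that complex I and many other enzymes carry, had 622, 620, 325 and 298 and was 2.00-fold lower.

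The nuclear pore, through which ribosomal subunits leave the nucleus, had 2 members of 15 measured genes (13.3%, beside 1.52% overall), and 1 when the arrays were scaled to the hybridisation controls. AT3G14120, of NUP107, a scaffold protein, had signals of 197, 141, 64.7 and 61.2, a 2.65-fold difference. AT3G56900, of ALADIN, had 192, 169, 77.4 and 59.4, a 2.66-fold difference. The median of the list was -0.52, with 6 genes (40%) at least 1.5-fold lower late, beside 13.6% overall.

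The oxidative pentose phosphate pathway makes NADPH and ribose. A list of its enzymes together with the plastid carrier of a pentose phosphate, written after the members had been seen, had 4 measured genes. Of these, 2 were members (50%, beside 1.52% overall), an enzyme and the carrier. With the arrays scaled to the hybridisation controls 1 was a member. At least 1.5-fold lower late were 3 (75%, beside 13.6% overall), and 4 genes are too few to read a share from. AT1G64190, a 6-phosphogluconate dehydrogenase, had signals of 128, 125, 49.0 and 50.5 on days 1, 3, 5 and 7, a 2.54-fold difference. AT5G17630, the carrier that brings xylulose 5-phosphate into plastids, had 691, 760, 342 and 328, a 2.16-fold difference. The other 6-phosphogluconate dehydrogenase genes, AT5G41670 and AT3G02360, had log2 differences of -0.63 and 0.32.

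Of 7 small heat-shock proteins measured, in a list written after the members had been seen, 2 were members (28.6%, beside 1.52% overall). Neither met the rule when the arrays were scaled to the hybridisation controls. At least 1.5-fold lower late were 4 of the 7 (57.1%, beside 13.6% overall), and 6 were below 0, with a median of -1.07. AT1G54050, a small heat-shock protein that keeps unfolded proteins from clumping, had signals of 182, 146, 34.5 and 41.1, a 4.32-fold difference. AT5G51440, a mitochondrial one, had 81.7, 103, 44.0 and 43.3. Their relative AT5G37670 went the other way with a log2 difference of 0.94. AT1G04770, a gene known to respond to sulphur shortage, had 347, 322, 117 and 102 and was 3.07-fold lower late. The other measured gene of the sulphur list, BGLU28, had 2368, 558, 1890 and 2378, a log2 difference of 0.88. AT5G53820, of the late embryogenesis abundant type, had 119, 131, 23.6 and 30.3, so days 5 and 7 were at least 4.55-fold lower, and AT5G48480, with a glyoxalase fold, had 501, 649, 139 and 162, a 3.79-fold difference.

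**Figure D4:**
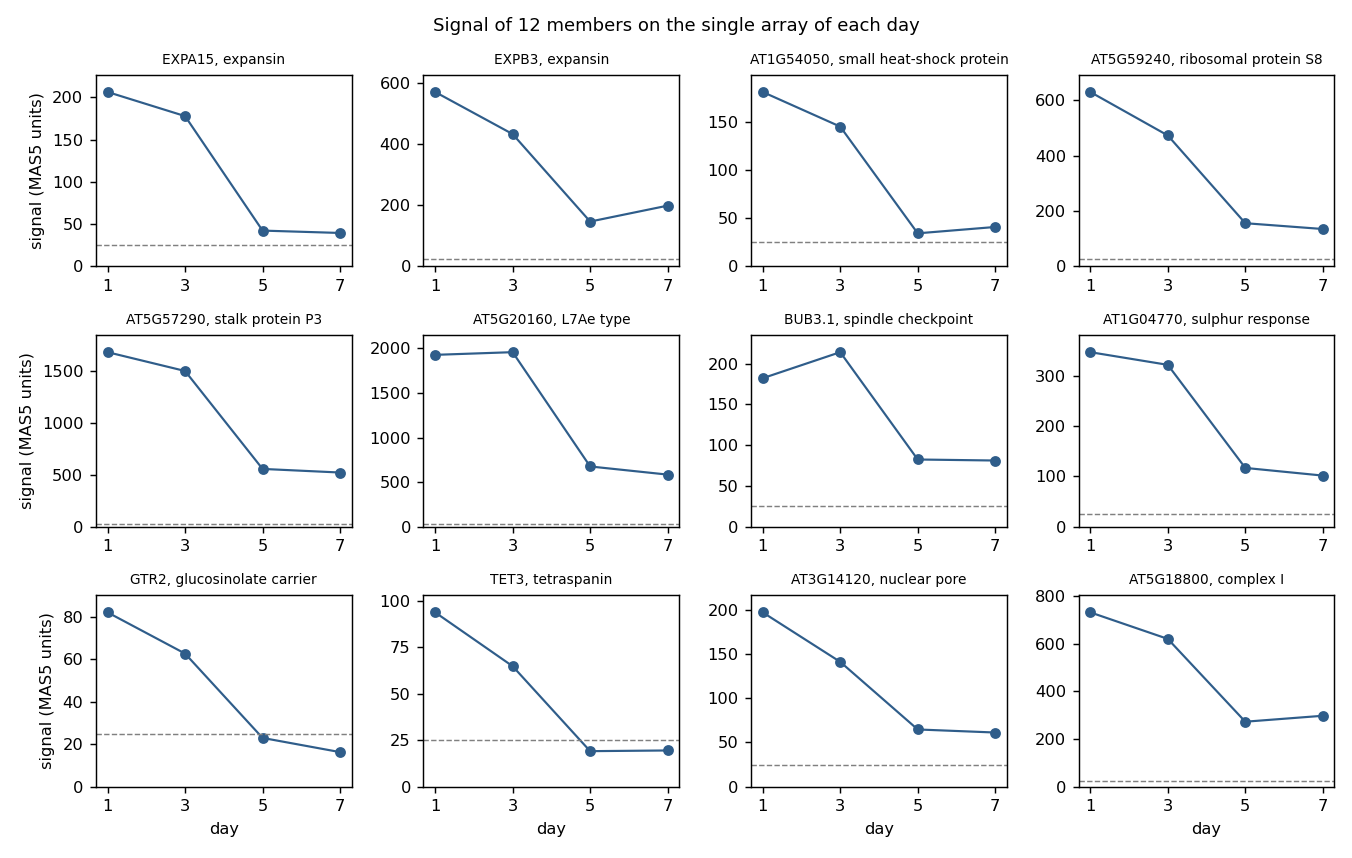
Signal (linear MAS5 units, vertical axis from 0) of 12 members on days 1, 3, 5 and 7, with 1 array per day and the floor of 25 as a dashed line. All 12 sit high on days 1 and 3 and low on days 5 and 7, and only GTR2 and TET3 reach below the floor.

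Members with a large step and no role given here included AT2G42770, AT1G72500 and AT1G73940, which were 3.55-fold, 3.79-fold and 3.56-fold lower on days 5 and 7, as well as AT2G25355, 3.17-fold lower, and AT1G77400, at least 2.88-fold lower. The largest steps of all lay in probe sets without a gene name here. The leading unnamed probe set had signals of 206, 152, 26.2 and 32.2 on the 4 days and a step of 4.73, and the next had 163, 139, 32.6 and 22.2 and a step of 4.25. The 82 members without a single gene had a median fold of 2.49, within a range of 1.92 to 6.10. A suffix for possible cross-hybridisation was carried by 11 members. No member was below the floor on day 1 or 3, but 10 were below it on both late days and 11 on a single late day, so their folds are lower bounds.

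For 3 member genes the same arrays carried a second probe set. That of AT5G54130, of the endonuclease/exonuclease/phosphatase family, had signals of 299, 398, 110 and 71.9 on the 4 days, 3.88-fold lower late. The one of AT1G79150 had 304, 366, 200 and 145, 1.96-fold lower. The one of AT3G09470 went against its member: the member had 457, 428, 165 and 200, and the other had 73.3, 89.3, 139 and 279, a log2 difference of 1.28. The gene table lists a neighbouring locus code, AT3G09460, as a synonym of this gene. Lower values on the late days by at least 1.5-fold were thus seen in 2 of 3, against 13.6% of measured probe sets of 1 gene, and 3 genes are too few to read a share from. Over 96 genes with 2 measured probe sets, the log2 difference between late and early days had an SD of 0.38 per probe set. This SD is a probe error and leaves out any error shared by a whole array or culture.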

How the data were processed

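The authors deposited linear signal intensities for 4 arrays. Per the submitters' processing notes they come from MAS5, which sums up the probes of a probe set (version not given in the sources used here). Trimming 2% from either end of an array's values gave a mean of 100.0 each time, so the authors had scaled the arrays alike, and they were used as deposited. Of 22810 probe sets 64 controls were left out. Gene names come from the array's annotation and from RefSeq's table for TAIR10.1, which held all 132 genes of members with 1 gene.

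The rule was applied to floored signals, and log2 means of days 5 and 7 and of days 1 and 3 were subtracted, with Python 3.11.15, pandas 2.3.3 and numpy 2.4.6. The code that applies the rule was checked on simulated arrays with known members. Without added error their recovery was fixed in advance, so this checks the code and does not measure how real error moves membership. The members, the lists and the roles were chosen with earlier results of these data known. Named genes are the 15 largest steps and the 10 highest early signals among members of 1 gene, members of the symbol lists, those nearest the limit and those with a second probe set. Members with a symbol, examples from the locus lists, relatives of members and RNA-modifying enzymes were added after their values were seen. Of 30 lists matched by symbol, 24 had a measured gene and 2 a member (wall loosening and membrane transporters), so the families above were matched by locus code. Sequences and promoter motifs were not analysed here.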

Additional observations from a re-analysis of the deposited data

How the results depend on the processing

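No paired analysis was possible because each day is a single array and the labels give all 4 the same replicate number. For the same reason no array could be left out. The number of members was 142 when the arrays were scaled to the hybridisation controls, of which 109 were among the 214. It was 546 with a step limit of 1.5-fold, 122 with 2-fold, and 103 with the tighter of the flatness limits tried. The median log2 difference was then -1.03 with the 1.5-fold step and -1.41 with the 2-fold step. The other settings were floors of 10, 50 and none (signals below 1 raised to 1), a common median, a common 75th percentile, quantile normalization, pairs within 2-fold, and leaving out probe sets with a cross-hybridisation suffix, and they gave 190 to 318 members. Of the 214, 190 met the rule under a common median and 164 after quantile normalization. Ribosomal members numbered 13 after quantile normalization, and the cause was not tested. Second probe sets of member genes that were lower late numbered 1 under a common median and with either other step limit, and 0 with the tighter flatness limit, where fewer genes were members. The median over all measured probe sets was between -0.09 (common median) and 0.18 (hybridisation controls). The planned count of promoter motifs was not run, for want of promoter sequences here. Signals near the floor carry a large relative error, so the folds of members that reach it on days 5 and 7 are bounds.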

Other observations

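Positions along the chromosomes were counted in genes. Another member stood within 5 genes of 8 of the 131 protein-coding member genes (6.11%), and of 421 of the 8094 other measured genes (5.20%). The pairs were AT1G64185 and AT1G64190, AT3G10610 and AT3G10630, AT5G20160 and AT5G20180, and AT5G27770 and AT5G27820.

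Chromosome 4 held 9 of the 131 member genes (6.87%), against 14.5% of the measured genes, and chromosome 1 held 41 (31.3%), against 25.8%. Member genes had a median length of 1895 bases in the gene table, and all measured genes 2342. The 32 ribosomal members had 1646 and all 125 measured ribosomal genes 1544, while the other members had 2290 and the other measured genes 2361.

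Some organelle ribosome genes were also found among the members, picked out after their values were seen. The measured genes of this kind were not counted, so no share is given and nothing is read from these examples. AT5G20180 had signals of 1215, 1093, 502 and 509 on days 1, 3, 5 and 7, and AT1G26740 had 327, 255, 133 and 92.2, both for proteins of bacterial-type large subunits. They were 2.28-fold and 2.61-fold lower on days 5 and 7. AT3G11630, a 2-Cys peroxiredoxin of plastids, had 614, 617, 291 and 248 and was 2.29-fold lower late, and AT1G30580, a GTPase of the OLA1 type, had 573, 451, 250 and 209 and was 2.22-fold lower.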
